A study of Arabidopsis thaliana with 8 samples.

Results

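The light-grown DAY knockdown seedlings were described here by 2 of the 8 libraries of the series: DAYi with DEX and DAYi with EtOH. Both came from whole seedlings of the Col-0 ecotype, 9 days old and grown in the light, that carried an RNAi construct against DAY, a gene for a chaperone-like membrane protein with a DnaJ-like domain. The construct is switched on by dexamethasone (DEX), a synthetic steroid. The DAYi DEX seedlings grew on plates with 1 µM DEX, and the DAYi EtOH seedlings grew on plates with the ethanol solvent. All 26987 gene entries of the deposited table for this pair were used, and the 12650 entries with at least 10 FPKM (fragments scaled to transcript length and to library size) in 1 or both libraries were ranked by the ratio of DEX to EtOH. Seedlings of bri1-116 and Col-0 of the same age and light, both on ethanol plates, are given beside them. The bri1-116 plants carry a mutant allele of the brassinosteroid receptor gene BRI1. The question of the pair is which transcripts, and which gene families across the genome, differ when DAY is silenced in seedlings grown in the light.

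There was 1 library per condition, so the differences below have no replicate check and no test across samples was possible. The library titles carry the number 25 for DEX and the number 3 for EtOH, and the labels do not explain these numbers, so a difference between plant lines cannot be told apart from one between treatments. No DEX-treated library without the construct was analysed here, so an effect of DEX itself cannot be told apart from that of the knockdown. The RNA came from whole seedlings, in which fewer cells of a type and less RNA per cell cannot be told apart. The title of the bri1-116 library begins with "new", without explanation. The bri1-116 and Col-0 values stand in another table, which may have been scaled apart from the DAYi table.

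A few facts of plant biology help in reading the gene families. The chloroplast is built from proteins encoded in the nucleus and from a small set encoded in the plastid itself, which are made by a plastid RNA polymerase, its sigma factors and accessory proteins, and a bacterial type of ribosome whose proteins come largely from nuclear genes. Glucosinolates are sulfur-rich defence compounds of the cabbage family, made from methionine (aliphatic) or from tryptophan (indole). Anthocyanins are red and purple pigments made by the late enzymes of the flavonoid pathway. Late embryogenesis abundant (LEA) proteins accumulate in drying seeds and in tissues short of water.

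The targeted transcript differed in the direction of the labels. DAY (AT3G51140) had 6.88 FPKM in DAYi DEX, against 56.9 FPKM in DAYi EtOH, and it had 41.8 FPKM in bri1-116 and 73.5 FPKM in Col-0. The log2 ratio of DEX to EtOH was -3.05. The spacing of low FPKM values gave an estimated depth of 63.6 fragments per FPKM on 1 kb of transcript in DAYi DEX and 50.5 in DAYi EtOH. Ranked transcripts of about 1 kb or longer thus rested on many fragments in 1 or both libraries. Very short entries rested on fewer. Both libraries listed similar numbers of entries of at least 1 FPKM, 18736 in DAYi DEX and 18856 in DAYi EtOH. Of the marker lists of cell types, the 4 leaf mesophyll markers summed to 7706 FPKM in DAYi DEX and 42335 FPKM in DAYi EtOH, and 4 of 4 were more than 2-fold lower. The 3 epidermis markers summed to 190.1 FPKM in DAYi DEX and 438 FPKM in DAYi EtOH, with 2 of 3 lower, and the 2 found markers of dividing cells summed to 24.9 FPKM in DAYi DEX and 74.5 FPKM in DAYi EtOH, with both lower. The xylem, root hair and root endodermis markers summed to 64.5, 144.5 and 120.2 FPKM in DAYi DEX and to 51.8, 90.8 and 98.1 FPKM in DAYi EtOH. Of these 16 markers 1, CASP5, was more than 2-fold apart (lower). The xylem sum was higher through XCP1 alone (log2 ratio of DEX to EtOH 0.61). The xylem markers CESA7, CESA8 and CESA4 were lower, with log2 ratios of -0.44, -0.36 and -0.18. Of the root endodermis markers, SCR (log2 ratio -0.50) and CASP5 (-1.85) were lower and the others higher. All root hair markers were higher. The 3 seed markers summed to 4.93 FPKM in DAYi DEX and 0.0989 FPKM in DAYi EtOH. The part of these shifts between cell types in the results below was not tested.

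Differences between the DEX and EtOH libraries were spread over much of the genome. Among the 12650 ranked entries, 1262 (9.98%) were more than 2-fold higher in DAYi DEX than in DAYi EtOH and 1886 (14.9%) were more than 2-fold lower. Ratios of more than 4-fold were found for 283 higher (2.24%) and 600 lower entries (4.74%), and ratios of more than 16-fold for 53 higher (0.419%) and 90 lower entries (0.711%). The middle 50% of entries lay between log2 ratios of -0.52 and 0.51, whereas those of DAYi EtOH over Col-0, neither of which had the RNAi induced, lay between -0.17 and 0.07. Only 60 ranked entries (0.474%) were more than 2-fold apart between DAYi EtOH and Col-0, whose tables differ. With Col-0 in the place of DAYi EtOH, 1078 of the 1262 higher entries (85.4%) and 1778 of the 1886 lower entries (94.3%) were again more than 2-fold apart in the same direction, with the DEX library common to both ratios. The lower entries held 14.7% of the summed FPKM of the DEX library and 45.5% of that of the EtOH library, and the higher entries held 16.3% of the DEX library and 3.43% of the EtOH library. The lower entries include AT2G01021, which alone held 1.51% of the summed FPKM in DAYi DEX and 4.39% in DAYi EtOH.

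**Figure D1:**
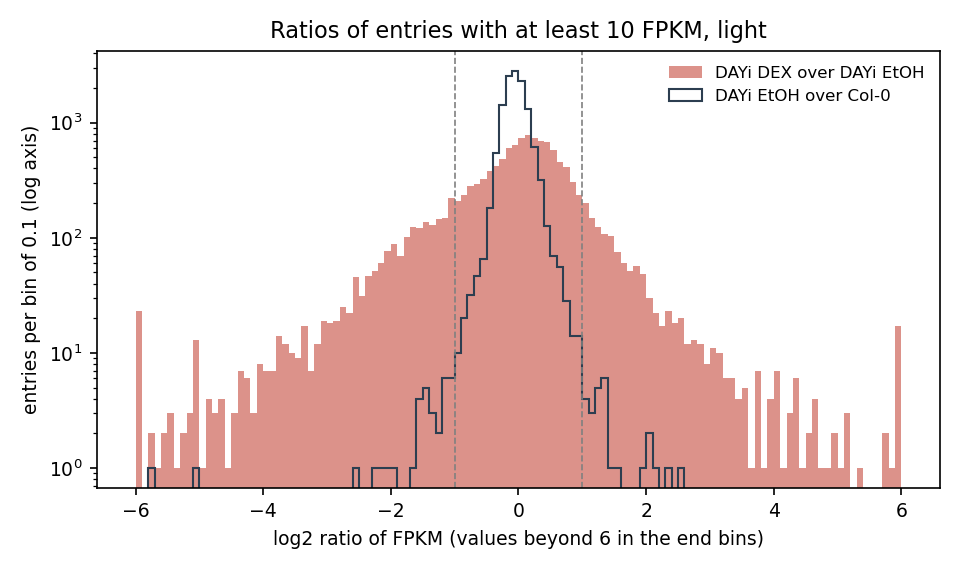
Histogram of log2 ratios of DAYi DEX over DAYi EtOH (x axis) for entries of at least 10 FPKM in 1 or both libraries (y axis, number of entries per bin), with the ratios of DAYi EtOH over Col-0 drawn for comparison. The DEX over EtOH ratios spread far wider, with 1262 entries more than 2-fold higher and 1886 more than 2-fold lower, against 60 more than 2-fold apart between DAYi EtOH and Col-0.

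Most of the 30 highest entries had low values in DAYi EtOH, with AT2G05510 (71.8 FPKM in DAYi EtOH) and SAG29 as exceptions. CYS2, a cystatin (an inhibitor of cysteine proteases), had 4409.6 FPKM in DAYi DEX and 2.08 FPKM in DAYi EtOH, against 5.48 FPKM in bri1-116 and 1.69 FPKM in Col-0. Its log2 ratio of DEX to EtOH, 11.05, was the highest of the single-locus entries ranked. BGLU45, a beta-glucosidase, had 1129.5 FPKM in DAYi DEX and 0.876 FPKM in DAYi EtOH. CYP94B3, a cytochrome P450 that hydroxylates the active jasmonate conjugate, had 211 FPKM in DAYi DEX and 0.814 FPKM in DAYi EtOH. Each of these 3 transcripts was below 6 FPKM in all of the DAYi EtOH, bri1-116 and Col-0 libraries. SAG29, a sugar transporter of the SWEET family known as a senescence marker, had 454 FPKM in DAYi DEX and 14.3 FPKM in DAYi EtOH, a 31.8-fold difference. AT1G49570 and AT4G33720 had 37.0 and 28.3 FPKM in DAYi DEX and 0.171 and 0.522 FPKM in DAYi EtOH, but 9.24 and 17.1 FPKM in Col-0, so that the libraries without induced RNAi differed there as well. The malate transporter ALMT1 had 43.2 FPKM in DAYi DEX and 1.23 FPKM in DAYi EtOH, and the secreted ribonuclease RNS1 had 20.8 FPKM in DAYi DEX and 0.584 FPKM in DAYi EtOH. PEI1, AT1G47980, FLA5 and AT5G55690 also ranked among the 30 highest, but their EtOH values rested on fewer than about 3 estimated fragments, so that no fold is given; PEI1 had 19.1 FPKM in DAYi DEX and 0.0213 FPKM in DAYi EtOH.

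At the low end stood transcripts of high abundance in DAYi EtOH and Col-0. AT4G26530, which encodes fructose-bisphosphate aldolase, an enzyme of sugar metabolism, had 0.280 FPKM in DAYi DEX and 480.5 FPKM in DAYi EtOH, against 5.77 FPKM in bri1-116 and 519.7 FPKM in Col-0. Its log2 ratio of DEX to EtOH was -10.75. The defensin-like gene AT3G05727 had 8.55 FPKM in DAYi DEX and 1010.1 FPKM in DAYi EtOH, and AT4G29030 had 0.0970 FPKM in DAYi DEX and 81.5 FPKM in DAYi EtOH. Both were also abundant in Col-0, at 1114 and 96.0 FPKM. AT5G22580 had 0.574 FPKM in DAYi DEX and 101 FPKM in DAYi EtOH, and MLP28, of the major latex protein family, had 2.40 FPKM in DAYi DEX and 106 FPKM in DAYi EtOH. AT4G21650, with 0.00604 FPKM in DAYi DEX and 11.3 FPKM in DAYi EtOH, and AT5G38930 rested on fewer than about 3 estimated fragments in DAYi DEX, and no fold is given for them.

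To describe functions across the genome, 75 families were drawn up from gene symbols and descriptions, and their members of at least 1 FPKM in 1 or both libraries were counted. Of all 19508 such entries, 10.8% were more than 2-fold higher in DAYi DEX and 15.1% were more than 2-fold lower, and the median log2 ratio, computed as log2((FPKM + 1)/(FPKM + 1)), was 0.04. The medians below are on that scale, which understates the differences of low genes. A low gene can reach the minimum through the library in which it is high, so the counts are descriptions of the members that reached it.

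**Figure D2:**
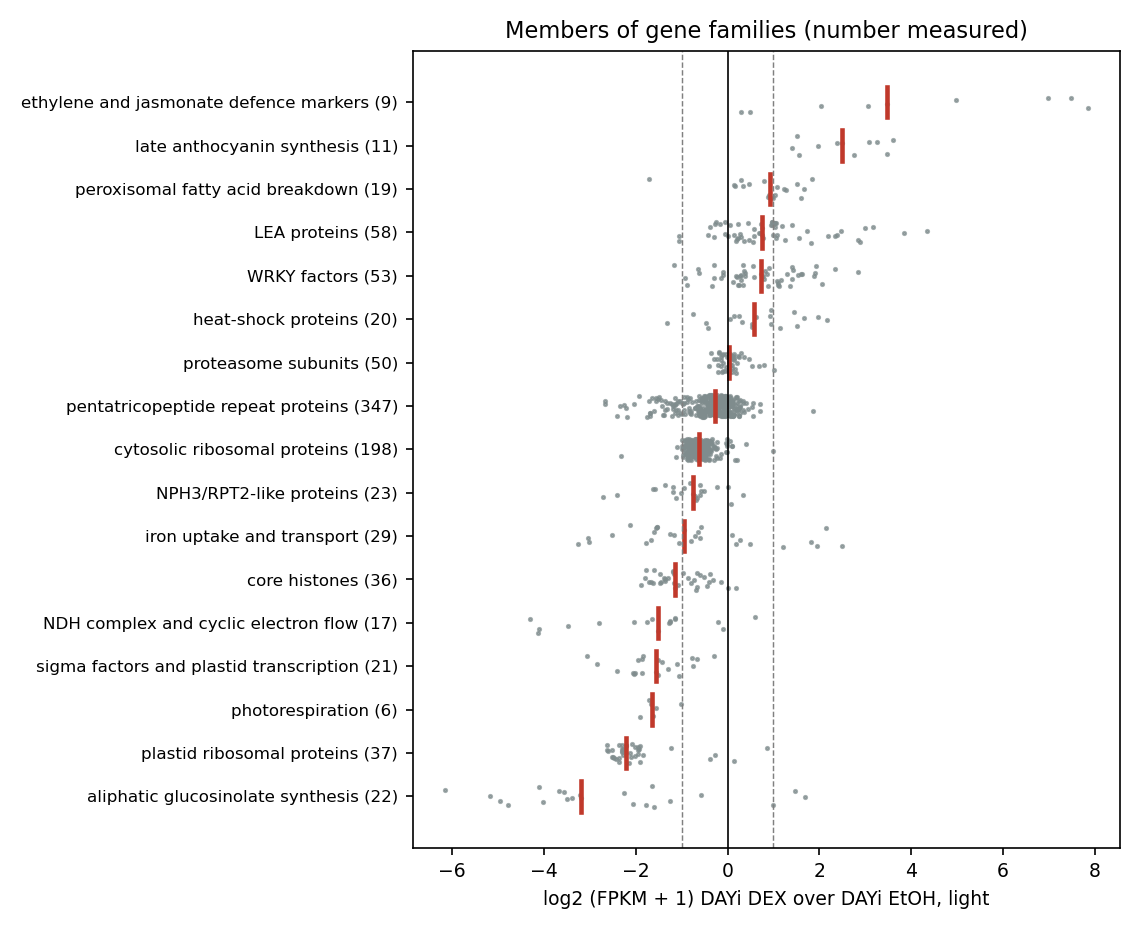
Log2((FPKM + 1)/(FPKM + 1)) of DAYi DEX over DAYi EtOH (x axis) for each member (points) of 17 families (rows), with the family median as a red bar. Plastid ribosomal proteins (median -2.21) and aliphatic glucosinolate synthesis (median -3.20) lie to the left of 0, and late anthocyanin synthesis (median 2.50) and the ethylene and jasmonate defence markers (median 3.46) to the right.

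The nuclear genes for the gene expression machinery of the plastid were lower in DAYi DEX nearly throughout. The 4 mesophyll markers, at 7706 FPKM in DAYi DEX and 42335 FPKM in DAYi EtOH, were lower too, and their part in these values was not tested. Of 37 plastid ribosomal proteins, 33 (89.2%) were more than 2-fold lower and no member was higher, with a median log2 ratio of -2.21 and summed FPKM of 3367 in DAYi DEX against 15231 in DAYi EtOH. PSRP5, a plastid-specific ribosomal protein, had 193 FPKM in DAYi DEX and 788.8 FPKM in DAYi EtOH. The ribosomal protein genes AT5G47190 and AT1G48350 had 43.6 and 82.7 FPKM in DAYi DEX and 275 and 516 FPKM in DAYi EtOH. All 3 were above the EtOH value in Col-0. In bri1-116 over Col-0, where 4.39% of these entries were more than 2-fold higher and 6.1% more than 2-fold lower, 1 plastid ribosomal protein was higher and 1 was lower. Among 21 sigma factors and plastid transcription proteins, 17 (81.0%) lay on the lower side beyond 2-fold, with no member on the higher side and a median of -1.55. PTAC16, a protein of the plastid transcriptionally active chromosome, had 74.9 FPKM in DAYi DEX and 544 FPKM in DAYi EtOH, and PTAC18 had 4.31 FPKM in DAYi DEX and 43.1 FPKM in DAYi EtOH. SIG4, a sigma factor that guides the plastid polymerase to its promoters, had 4.43 FPKM in DAYi DEX and 28.0 FPKM in DAYi EtOH.

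The promoters of the plastid ribosomal protein genes are shown because this family had the highest share of members lower among the families of more than 10 members, and because a short motif was frequent in them. The motif GATAAG, known as the I-box of light-regulated promoters, was searched on both strands from 250 bases before to 50 bases after the RefSeq transcript start. It was present in 17 of 37 plastid ribosomal promoters (45.9%), against 14.6% of all 26311 promoters matched, and in 8 of 19 promoters of peroxisomal fatty acid breakdown (42.1%), a family with more higher than lower members. It was near the share of all promoters in the NDH genes, with 3 of 17 promoters (17.6%), and in sigma factors and plastid transcription, with 3 of 21 (14.3%). It was present in 21.5% of promoters of ranked entries more than 2-fold lower and 16.5% of those more than 2-fold higher. The 250 bases before the start are given below for 2 family members from RefSeq (TAIR10.1), 5′ to 3′ on the gene's strand, with the motif or its reverse complement CTTATC in capitals. They were chosen after their values were seen, as members with a match. These are AT4G01310 (chr4:545567-545816, minus strand), with 70.6 FPKM in DAYi DEX and 386 FPKM in DAYi EtOH, and AT3G15190 (chr3:5115771-5116020, plus strand), with 77.4 FPKM in DAYi DEX and 404 FPKM in DAYi EtOH. The match lies 18 bases before the start in AT4G01310 and 148 bases before it in AT3G15190. A match describes the sequence only.
AT4G01310: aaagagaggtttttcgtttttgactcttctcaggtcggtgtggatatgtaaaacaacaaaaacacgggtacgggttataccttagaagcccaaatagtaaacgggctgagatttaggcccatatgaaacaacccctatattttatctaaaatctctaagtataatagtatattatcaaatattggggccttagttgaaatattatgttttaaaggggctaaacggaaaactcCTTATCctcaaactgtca
AT3G15190: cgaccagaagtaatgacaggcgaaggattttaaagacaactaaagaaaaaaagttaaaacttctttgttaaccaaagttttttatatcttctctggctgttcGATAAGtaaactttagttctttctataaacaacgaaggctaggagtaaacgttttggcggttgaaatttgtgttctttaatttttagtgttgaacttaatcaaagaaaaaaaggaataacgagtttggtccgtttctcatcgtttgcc

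The other plastid families were lower to differing extents. The NDH complex, which returns electrons from the stroma to the plastoquinone pool, and its partners of cyclic electron flow had 14 of 17 members (82.4%) more than 2-fold lower and none higher, with a median of -1.52. CRR7, an assembly factor of the complex, had 1.37 FPKM in DAYi DEX and 46.1 FPKM in DAYi EtOH, and the subunit genes NDF4 and CRR23 had 5.16 and 13.5 FPKM in DAYi DEX and 105 and 252 FPKM in DAYi EtOH. PGR5, which acts in the other route of cyclic flow, had 165 FPKM in DAYi DEX and 395 FPKM in DAYi EtOH, a smaller difference. In bri1-116 over Col-0, 9 of the 17 were more than 2-fold lower and no member was higher. Of 6 photorespiratory enzymes, which recover carbon from the oxygenation product of Rubisco, 6 were lower, with a median of -1.65; SHM1, the mitochondrial serine hydroxymethyltransferase, had 456 FPKM in DAYi DEX and 1491 FPKM in DAYi EtOH. The import machinery of the envelope, TIC and TOC, was closer to the control, with 4 of 14 members lower, none higher and a median of -0.43. TOC33, an import receptor, had 30.3 FPKM in DAYi DEX and 81.8 FPKM in DAYi EtOH.

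Other families of protein synthesis and breakdown differed less. Of 347 pentatricopeptide repeat proteins, which process organelle transcripts, 65 (18.7%) were more than 2-fold lower and 1 higher, with a median of -0.28. The 1 higher entry, AT1G07590, had 2329 FPKM in DAYi DEX and 640.5 FPKM in DAYi EtOH, but it shares its interval in the table with the metallothionein gene MT1A, so its value is uncertain. The 198 cytosolic ribosomal proteins had a median of -0.61 and summed to 58644 FPKM in DAYi DEX and 107145 FPKM in DAYi EtOH, with 5 more than 2-fold lower and 1 higher. AT3G08520, which encodes ribosomal protein L41, had 3673 FPKM in DAYi DEX and 18424 FPKM in DAYi EtOH. Of 50 proteasome subunits, 1 was more than 2-fold higher and none lower, with a median of 0.04, and of 22 endoplasmic reticulum chaperones none was more than 2-fold apart, with a median of 0.09. Of 20 heat-shock proteins, 9 (45%) were higher and 1 lower. Of the 12 members of at least 10 FPKM, 4 were higher and 1 lower. HSP90.1, a cytosolic chaperone, had 22.5 FPKM in DAYi DEX and 6.38 FPKM in DAYi EtOH, and the 1 lower member, the chloroplast chaperone HSP93-III, had 39.1 FPKM in DAYi DEX and 99.4 FPKM in DAYi EtOH. In bri1-116 over Col-0, 6 of the 20 were more than 2-fold higher and 1 lower.

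Many genes of dividing cells were lower in DAYi DEX, as were the markers of dividing cells given above, whose part in these values was not tested. Of 36 core histones, which package DNA, 21 (58.3%) were more than 2-fold lower and no member was higher, with a median of -1.15. HTA11, a histone H2A variant of the H2A.Z type, had 28.7 FPKM in DAYi DEX and 109 FPKM in DAYi EtOH, and the histone H3 gene AT5G10390 had 17.4 FPKM in DAYi DEX and 62.0 FPKM in DAYi EtOH. The abundant histone H3.3 genes AT4G40030 and AT4G40040, whose products are also deposited outside of DNA replication, had 455 and 508 FPKM in DAYi DEX and 564 and 448 FPKM in DAYi EtOH. Of 44 kinesins, which move along microtubules, 17 (38.6%) were lower and 1 higher. Only 4 of the 20 kinesins of at least 10 FPKM were lower, so that count rests mostly on genes of low level. Of 7 mitotic genes 4 were lower. SYP111, the syntaxin of the cell plate also called KNOLLE, had 17.1 FPKM in DAYi DEX and 54.1 FPKM in DAYi EtOH. SYP111 is also among the markers of dividing cells, so the mitotic genes and the markers are not separate observations. In bri1-116 over Col-0, 14 of the 36 histones were more than 2-fold lower, while none of the 7 mitotic genes was more than 2-fold apart.

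The late anthocyanin genes that reached 1 FPKM, 11 of 13 listed, were higher in DAYi DEX. More than 2-fold differences were found for 11 of 11, with log2 ratios between 1.41 and 3.60 and a median of 2.50. DFR, dihydroflavonol reductase, the first enzyme of the late steps, had 169 FPKM in DAYi DEX, 13.01 FPKM in DAYi EtOH, 0.141 FPKM in bri1-116 and 20.2 FPKM in Col-0. LDOX, which makes the coloured anthocyanidin, had 154 FPKM in DAYi DEX, 17.4 FPKM in DAYi EtOH, 0.198 FPKM in bri1-116 and 27.8 FPKM in Col-0. UF3GT, a glycosyltransferase that adds xylose to the pigment, had 37.0 FPKM in DAYi DEX and 2.44 FPKM in DAYi EtOH, a 15.2-fold difference. The gene scpl10, of the serine carboxypeptidase-like family, had 225 FPKM in DAYi DEX and 22.7 FPKM in DAYi EtOH. For bri1-116 over Col-0 the same family had a median of -2.21, with none more than 2-fold higher and 10 of 11 lower. The 14 genes of early flavonoid and flavonol synthesis, which feed the same pathway, stood closer together, with 2 higher, 1 lower and a median of 0.52: chalcone synthase, TT4, had 519.6 FPKM in DAYi DEX and 372 FPKM in DAYi EtOH. MYB111, a regulator of flavonol genes and the 1 lower member, had 0.324 FPKM in DAYi DEX and 2.86 FPKM in DAYi EtOH.

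The G-box CACGTG, a palindrome bound by bHLH and bZIP factors, was found within the same window around the start in 4 of 11 late anthocyanin promoters (36.4%) and in 14 of 58 LEA promoters (24.1%), against 7.76% of all promoters, 7.64% of promoters of ranked entries more than 2-fold higher and 9.41% of those more than 2-fold lower. The 250 bases before the start are shown for DFR (chr5:17166033-17166282, minus strand) and UF3GT (chr5:21938397-21938646, minus strand), and for the LEA genes LEA18 (chr2:14863413-14863662, minus strand) and AT3G02480 (chr3:511970-512219, plus strand). They were chosen after values and matches were seen, as members with a match; most promoters of both families hold none. They come from RefSeq (TAIR10.1) and run 5′ to 3′ on the gene's strand with the G-box in capitals. UF3GT has 2 matches, the nearer one 128 bases before the start, and the matches of DFR, LEA18 and AT3G02480 lie 14, 55 and 36 bases before it.
DFR: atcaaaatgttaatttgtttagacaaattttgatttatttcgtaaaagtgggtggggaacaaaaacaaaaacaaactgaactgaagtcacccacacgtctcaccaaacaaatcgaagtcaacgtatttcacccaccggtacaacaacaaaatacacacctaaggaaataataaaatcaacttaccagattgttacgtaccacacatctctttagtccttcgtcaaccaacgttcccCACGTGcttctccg
UF3GT: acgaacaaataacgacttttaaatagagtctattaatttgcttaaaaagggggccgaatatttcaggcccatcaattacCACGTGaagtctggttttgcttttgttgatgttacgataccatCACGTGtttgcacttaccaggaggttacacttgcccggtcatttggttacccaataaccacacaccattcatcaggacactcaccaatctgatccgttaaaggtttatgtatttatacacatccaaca
LEA18: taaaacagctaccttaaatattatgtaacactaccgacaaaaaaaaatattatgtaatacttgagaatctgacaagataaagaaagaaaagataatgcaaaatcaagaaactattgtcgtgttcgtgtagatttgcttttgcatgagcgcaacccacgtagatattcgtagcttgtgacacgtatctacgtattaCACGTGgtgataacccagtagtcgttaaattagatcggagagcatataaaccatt
AT3G02480: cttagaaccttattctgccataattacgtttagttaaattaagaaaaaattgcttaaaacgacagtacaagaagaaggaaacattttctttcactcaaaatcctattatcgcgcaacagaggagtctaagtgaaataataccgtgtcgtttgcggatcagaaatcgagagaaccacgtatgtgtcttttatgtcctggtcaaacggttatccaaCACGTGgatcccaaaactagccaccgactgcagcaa

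Aliphatic glucosinolate synthesis had the lowest median of the 75 families. Of 22 genes, 17 (77.3%) were more than 2-fold lower and 3 higher, with a median of -3.20, and the summed FPKM was 329 in DAYi DEX and 2017 in DAYi EtOH. CYP79F1, the cytochrome P450 that converts elongated methionine at the entry to the core pathway, had 0.271 FPKM in DAYi DEX, 89.6 FPKM in DAYi EtOH, 31.8 FPKM in bri1-116 and 125 FPKM in Col-0. MYB29, a transcription factor that activates this pathway, had 0.166 FPKM in DAYi DEX and 12.7 FPKM in DAYi EtOH. IMD1, an enzyme of methionine chain elongation, had 19.7 FPKM in DAYi DEX and 188 FPKM in DAYi EtOH, and GSTU20, a glutathione transferase co-expressed with the pathway, had 13.8 FPKM in DAYi DEX and 531 FPKM in DAYi EtOH. Steps of chain elongation, of the core pathway and of its control were thus all represented among the lower genes. The 3 higher genes encode the flavin monooxygenases of side chain oxidation: FMO GS-OX2 had 14.3 FPKM in DAYi DEX and 3.73 FPKM in DAYi EtOH, FMO GS-OX4 had 56.4 FPKM in DAYi DEX and 19.9 FPKM in DAYi EtOH, and FMO GS-OX5 had 59.2 FPKM in DAYi DEX and 29.1 FPKM in DAYi EtOH. In bri1-116 over Col-0 the family had a median of -0.57, with 6 lower and none higher.

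Indole glucosinolate synthesis had members in both directions, with 2 of 12 genes higher, 3 lower and a median of 0.21. MYB51, an activator of the indole branch, had 42.0 FPKM in DAYi DEX and 5.22 FPKM in DAYi EtOH. CYP79B3, which converts tryptophan at the entry of the branch, had 12.3 FPKM in DAYi DEX and 58.4 FPKM in DAYi EtOH, and MYB34, another activator of it, had 14.4 FPKM in DAYi DEX and 45.7 FPKM in DAYi EtOH.

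Markers of the ethylene and jasmonate defence branch were among the highest families. Of 9 genes, 6 (66.7%) were more than 2-fold higher and none lower, with a median of 3.46, and they summed to 2926 FPKM in DAYi DEX and 180 FPKM in DAYi EtOH. PR4, a secreted chitin-binding protein, had 1051 FPKM in DAYi DEX, 94.4 FPKM in DAYi EtOH and 109 FPKM in Col-0. The plant defensin PDF1.2, the classical marker of this branch, had 627 FPKM in DAYi DEX, 1.74 FPKM in DAYi EtOH, 0.696 FPKM in bri1-116 and 0.589 FPKM in Col-0. PDF1.3 had 881 FPKM in DAYi DEX and 3.93 FPKM in DAYi EtOH, and PDF1.2c, with 125 FPKM in DAYi DEX, was listed at 0 in DAYi EtOH. The PDF1.2 and PDF1.3 genes are near-identical copies, so reads may have been split among them. ORA59, the AP2/ERF factor that activates PDF1.2, had 28.5 FPKM in DAYi DEX and 2.52 FPKM in DAYi EtOH. Of all defensin-like genes, 16 of 35 (45.7%) were more than 2-fold lower and 7 higher, with a median of -0.59. PDF1.5 had 0.771 FPKM in DAYi DEX and 40.6 FPKM in DAYi EtOH.

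Jasmonate synthesis and response genes, and those of salicylate, had members in both directions. Of 27 jasmonate genes 6 were higher and 9 lower, with a median of 0.09. VSP1, a vegetative storage protein used as a marker of the wound branch of jasmonate signalling, had 1.16 FPKM in DAYi DEX and 16.3 FPKM in DAYi EtOH, and AOC2, allene oxide cyclase of jasmonate synthesis, had 24.2 FPKM in DAYi DEX and 112 FPKM in DAYi EtOH. Of 12 salicylate genes 3 were higher and 1 lower, with a median of 0.32. AT1G73805, which encodes SARD1, an activator of salicylate synthesis, had 32.8 FPKM in DAYi DEX and 0.359 FPKM in DAYi EtOH, whereas the marker PR5 had 20.4 FPKM in DAYi DEX and 15.6 FPKM in DAYi EtOH and the factor WRKY70 had 2.47 FPKM in DAYi DEX and 5.64 FPKM in DAYi EtOH. WRKY factors, a family tied to defence and senescence, had 21 of 53 members (39.6%) higher and 3 lower, with a median of 0.74. WRKY45 had 32.2 FPKM in DAYi DEX and 3.61 FPKM in DAYi EtOH, and WRKY18 had 33.4 FPKM in DAYi DEX and 5.77 FPKM in DAYi EtOH, but in bri1-116 they stood at 27.6 and 26.3 FPKM as well, against 7.76 and 5.50 FPKM in Col-0. Of the 53 WRKY factors, 10 were more than 2-fold higher in bri1-116 over Col-0 and none lower. Among other defence families, 22 of 63 cysteine/histidine-rich C1 domain proteins were higher and 4 lower, but of the 10 members of at least 10 FPKM 1 was higher, so that the count rests mostly on genes of low level. Of 18 phloem protein 2 genes, 8 were higher and 1 lower. PP2-A6 of that family had 33.6 FPKM in DAYi DEX and 0.978 FPKM in DAYi EtOH.

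**Figure D3:**
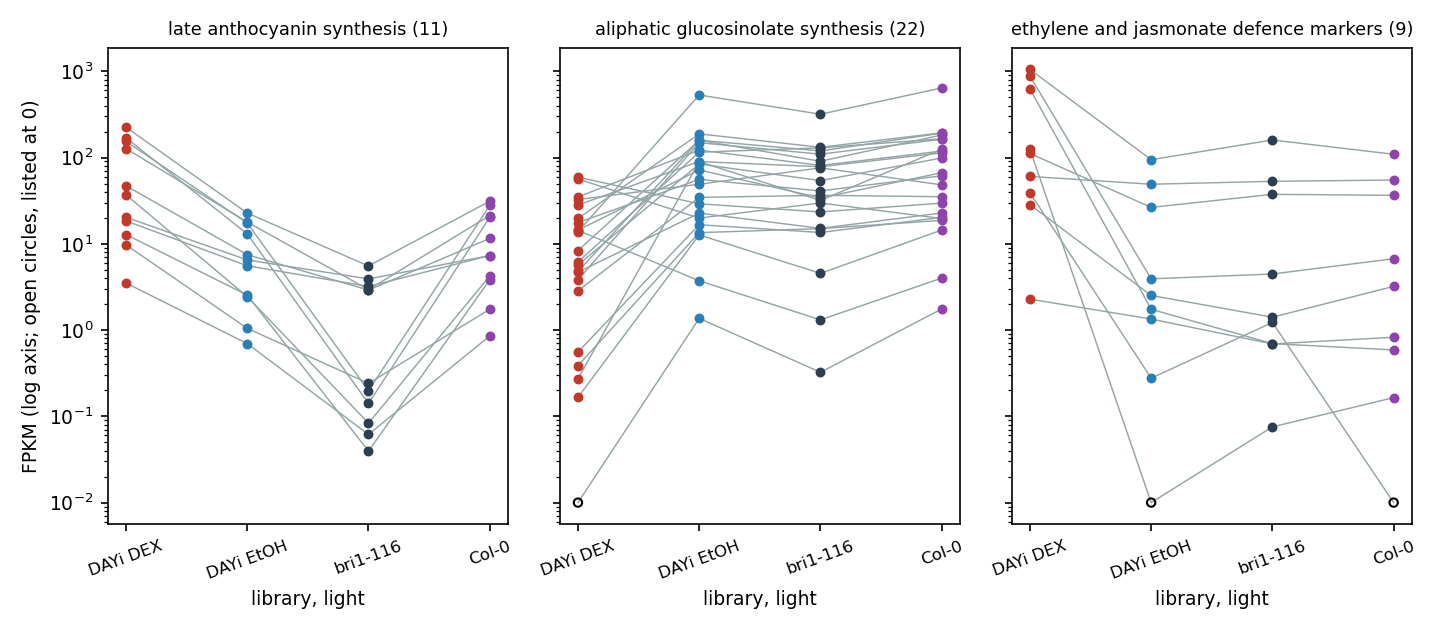
FPKM (log axis) of each gene of late anthocyanin synthesis (11 genes), aliphatic glucosinolate synthesis (22 genes) and the ethylene and jasmonate defence markers (9 genes) in DAYi DEX, DAYi EtOH, bri1-116 and Col-0, 1 library each; lines join a gene across libraries and open circles mark values listed at 0. DFR stands at 169 FPKM in DAYi DEX, 13.01 in DAYi EtOH, 0.141 in bri1-116 and 20.2 in Col-0, and in the same order of libraries CYP79F1 stands at 0.271, 89.6, 31.8 and 125 and PDF1.2 at 627, 1.74, 0.696 and 0.589.

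Families of water shortage and cold had more higher than lower members. Of 58 LEA proteins, 26 (44.8%) were more than 2-fold higher and 2 lower, with a median of 0.75. LEA18 had 18.2 FPKM in DAYi DEX and 0.333 FPKM in DAYi EtOH, AT3G02480 had 105 FPKM in DAYi DEX and 4.25 FPKM in DAYi EtOH, and the dehydrin COR47 had 981 FPKM in DAYi DEX and 194 FPKM in DAYi EtOH. In bri1-116 the same 3 transcripts had 2.16, 7.23 and 195 FPKM, against 0.192, 8.02 and 205 FPKM in Col-0, and 10 of the 58 family members were more than 2-fold higher in bri1-116 than in Col-0. Genes responsive to abscisic acid, cold and drought had 14 of 41 (34.1%) higher and 2 lower, and adenine nucleotide alpha hydrolases with universal stress proteins had 10 of 26 (38.5%) higher and 3 lower. NAC factors, a family with many regulators of senescence and drought, had 18 of 46 (39.1%) higher and 4 lower. ATAF1, an abscisic acid responsive member, had 372 FPKM in DAYi DEX, 36.8 FPKM in DAYi EtOH, 58.4 FPKM in bri1-116 and 46.6 FPKM in Col-0, and NAC003 had 58.7 FPKM in DAYi DEX and 6.24 FPKM in DAYi EtOH.

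The same held for enzymes that break down stored lipids. Of 19 genes of peroxisomal fatty acid breakdown, 9 (47.4%) were more than 2-fold higher and 1 lower, with a median of 0.93. SDP1, the lipase that opens the breakdown of storage oil, had 78.8 FPKM in DAYi DEX and 21.3 FPKM in DAYi EtOH, the peroxisomal acyl-CoA synthetase LACS7 had 41.1 FPKM in DAYi DEX and 13.8 FPKM in DAYi EtOH, and PCK1, the phosphoenolpyruvate carboxykinase that leads to sugar, had 259 FPKM in DAYi DEX and 80.7 FPKM in DAYi EtOH. The 1 lower member, the peroxisomal malate dehydrogenase PMDH2, which also serves photorespiration, had 302 FPKM in DAYi DEX and 989.6 FPKM in DAYi EtOH. The 3 seed markers were higher in DAYi DEX too, at low levels: CRU1 had 3.13 FPKM in DAYi DEX and 0.0989 FPKM in DAYi EtOH, and CRU3 and OLEO1 had 0.893 and 0.911 FPKM in DAYi DEX and were listed at 0 in DAYi EtOH. Their part in the values of the LEA and lipid genes was not tested.

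Metal genes had members in both directions. Of 29 genes of iron uptake and transport, 14 (48.3%) were more than 2-fold lower and 5 higher, with a median of -0.95. FRO2, the root ferric reductase, had 2.39 FPKM in DAYi DEX, 26.8 FPKM in DAYi EtOH, 10.3 FPKM in bri1-116 and 44.1 FPKM in Col-0, and BHLH101, an iron deficiency regulator, had 1.09 FPKM in DAYi DEX and 19.1 FPKM in DAYi EtOH. The 5 higher genes were the iron store ferritin FER1, with 454 FPKM in DAYi DEX and 128 FPKM in DAYi EtOH, the nicotianamine synthases NAS1 and NAS2, with 403 and 36.1 FPKM in DAYi DEX and 90.9 and 5.63 FPKM in DAYi EtOH, and the transporters of metal complexes YSL1 and YSL3, with 28.9 and 86.8 FPKM in DAYi DEX and 11.98 and 21.8 FPKM in DAYi EtOH. Among the genes named, the reductase FRO2 and the regulator BHLH101 were thus lower, and the 5 higher ones serve storage and transport within the plant. Between the libraries without induced RNAi, 2 of the 29 genes were more than 2-fold lower in DAYi EtOH than in Col-0. In bri1-116 over Col-0, 10 of the 29 were lower and 2 higher. Of 17 copper genes 4 were higher and 7 lower: CCS, the copper chaperone for superoxide dismutase, had 82.1 FPKM in DAYi DEX and 21.0 FPKM in DAYi EtOH, and DRT112, a plastocyanin, the copper protein of photosynthesis, had 1146 FPKM in DAYi DEX and 5641 FPKM in DAYi EtOH. The 6 metallothioneins, small proteins that bind copper and zinc, summed to 89028 FPKM in DAYi DEX and 47826 FPKM in DAYi EtOH, with 3 higher and none lower; MT2A had 2014 FPKM in DAYi DEX and 426 FPKM in DAYi EtOH and MT1A had 75439 FPKM in DAYi DEX and 40494 FPKM in DAYi EtOH.

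Genes of phosphate supply had more lower than higher members. Of 25 phosphate genes 3 were higher and 7 lower, and their median was -0.39. IPS1 and AT4, non-coding RNAs that accumulate without phosphate, had 0.395 and 8.40 FPKM in DAYi DEX and 12.8 and 75.3 FPKM in DAYi EtOH, against 38.4 and 126 FPKM in Col-0. IPS1 thus also differed between the DAYi EtOH and Col-0 libraries. Of 32 root hair genes, 5 were higher and none lower, with a median of 0.69. None of the 15 root hair members of at least 10 FPKM was more than 2-fold apart, so the 5 calls rest on genes below that level.

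Among regulators of growth and light responses, 2 families had no higher member. Of 23 NPH3/RPT2-like proteins, which act in phototropism and auxin transport, 14 (60.9%) were more than 2-fold lower, with a median of -0.75: AT3G15570 had 2.88 FPKM in DAYi DEX and 24.5 FPKM in DAYi EtOH, but RPT2 itself had 313 FPKM in DAYi DEX and 468 FPKM in DAYi EtOH. Of 22 zinc finger and BBX factors, 9 (40.9%) were lower, with a median of -0.76. COL2, a relative of the flowering regulator CONSTANS, had 16.4 FPKM in DAYi DEX, 139 FPKM in DAYi EtOH, 213 FPKM in bri1-116 and 132 FPKM in Col-0. Of 62 homeobox factors 18 (29.0%) were lower and 5 higher. HB33 and HAT3 had 1.12 and 0.921 FPKM in DAYi DEX and 15.6 and 11.03 FPKM in DAYi EtOH. The higher ones included genes that keep the shoot meristem undifferentiated, STM with 8.99 FPKM in DAYi DEX and 3.04 FPKM in DAYi EtOH, KNAT1 (BREVIPEDICELLUS) with 14.9 FPKM in DAYi DEX and 6.93 FPKM in DAYi EtOH and KNAT6 with 12.8 FPKM in DAYi DEX and 4.96 FPKM in DAYi EtOH, while ANT, an AP2 factor of organ growth, had 0.931 FPKM in DAYi DEX and 11.5 FPKM in DAYi EtOH. Cytokinin genes had 7 of 19 lower and 2 higher. LOG1, which activates cytokinins, had 2.64 FPKM in DAYi DEX and 27.3 FPKM in DAYi EtOH, and CKX3, which degrades them, had 6.84 FPKM in DAYi DEX and 0.356 FPKM in DAYi EtOH. Of 17 clock genes 3 were higher and 1 lower; GI, an evening gene, had 47.0 FPKM in DAYi DEX and 12.2 FPKM in DAYi EtOH, and the morning gene CCA1 had 57.0 FPKM in DAYi DEX and 90.6 FPKM in DAYi EtOH. The hour of harvest of each library is not given in the sources used here.

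Families of the cell wall and the surface held members at both ends. Of 44 glycine-rich proteins, 14 (31.8%) were higher and 3 lower, and they summed to 20458 FPKM in DAYi DEX and 3400.3 FPKM in DAYi EtOH. Most of that sum was 1 gene: AT2G05510 had 13018 FPKM in DAYi DEX, 71.8 FPKM in DAYi EtOH, 42.5 FPKM in bri1-116 and 321 FPKM in Col-0, a 181-fold difference of DEX over EtOH. GRP-3 had 1774 FPKM in DAYi DEX and 256 FPKM in DAYi EtOH. Of 58 lipid-transfer proteins 11 were higher and 15 lower, with log2 ratios between -7.38 and 3.91. pEARLI 1, a lipid-transfer protein of defence and cold, had 3747 FPKM in DAYi DEX and 376 FPKM in DAYi EtOH, and DIR1, which acts in systemic resistance, had 25.2 FPKM in DAYi DEX and 185 FPKM in DAYi EtOH. Of 41 extensins 11 were higher and 9 lower, and of 16 3-ketoacyl-CoA synthases, which elongate the fatty acids of waxes, 6 were lower and none higher. Of 50 glutathione transferases 15 (30%) were higher and 6 lower.

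A sweep over the descriptions themselves, which joined entries of like wording into 309 groups of 8 or more, placed further groups at both ends, some of them within the 75 families. Of 15 adenine nucleotide alpha hydrolases 9 were higher (60%), of 12 proline-rich extensins 7 (58.3%), of 13 heavy metal transport or detoxification proteins 6 (46.2%) and of 14 heat stress transcription factors 5 (35.7%). Another group of like wording, the heavy-metal-associated domain proteins, had 6 of 14 lower (42.9%) and 3 higher. The group worded as heat shock had 4 of 27 higher (14.8%) and none lower, with a median of 0.24. At the low end stood 13 of 13 entries described as plastid transcriptionally active (100%), 6 of 8 entries described as small auxin upregulated (75%, with 1 higher), 5 of 8 tropinone reductases (62.5%, with 2 higher), 5 of 9 BEL1 homeodomain factors (55.6%), 4 of 8 major latex proteins (50%) and 4 of 8 plastid-lipid-associated proteins (50%). A larger group of the small auxin upregulated genes, worded as SAUR auxin-responsive, had 16 of 50 lower (32%) and 5 higher, with a median of -0.27. Proteins called rotundifolia-like, small peptides that limit organ length when overexpressed, had 6 of 17 higher and 6 lower.

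By absolute difference in FPKM, the leading higher entries were abundant transcripts. Besides MT1A, AT2G05510 and CYS2, the glutamine synthetase GSR2 had 2032 FPKM in DAYi DEX and 663 FPKM in DAYi EtOH, the cytosolic thioredoxin TRX3 had 3525 FPKM in DAYi DEX and 1359.8 FPKM in DAYi EtOH, and the nitrilase NIT1 had 1715 FPKM in DAYi DEX and 769 FPKM in DAYi EtOH. EXT4, an extensin, had 1299 FPKM in DAYi DEX and 174 FPKM in DAYi EtOH. On the lower side, AT2G01021 led with 14027 FPKM in DAYi DEX and 52340.5 FPKM in DAYi EtOH, and it had 33212 FPKM in Col-0. It lies near the end of chromosome 2. This 1 entry held 1.51% of the summed FPKM in DAYi DEX, 4.39% in DAYi EtOH and 2.66% in Col-0, so its share also differed between the libraries without induced RNAi. RCA, the activase of Rubisco, had 3995 FPKM in DAYi DEX and 8294 FPKM in DAYi EtOH. Among entries listed at 0 in 1 library and at least 10 FPKM in the other there were 10 at 0 in DAYi DEX and 9 at 0 in DAYi EtOH. The entry CPuORF55, a short reading frame upstream of another, had 844 FPKM in DAYi EtOH and was listed at 0 in DAYi DEX, but also in bri1-116 and Col-0, and CPuORF3 had 380.5 FPKM in DAYi DEX and 926 FPKM in Col-0 and was listed at 0 in DAYi EtOH and bri1-116. Such entries overlap the main gene, and their values differed between the libraries without induced RNAi as well.

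Genes lying near each other were in places high or low together. Adjacent here means next to each other among entries of at least 1 FPKM in 1 or both libraries, so other genes can lie in between. Low genes such as CYP702A3 reached that minimum through the library in which they were high. Runs of 4 or more such entries, each more than 2-fold apart in the same direction, numbered 11 on the higher side and 14 on the lower side. They held 54 of the 2108 higher and 62 of the 2948 lower entries of at least 1 FPKM. Of all 19508 such entries, 10.8% were higher and 15.1% lower, so some runs would arise from these shares alone. How many was not computed, so the counts do not show that neighbours are linked. Some runs hold genes of unlike description, such as 1 on chromosome 1 with TUB5 and FNR2. The longest higher run held 9 entries on chromosome 4 (chr4:8730723-8813478 in the files' TAIR10 coordinates, 82.8 kb). It contains PEN1, a triterpene synthase, with 6.90 FPKM in DAYi DEX and 1.76 FPKM in DAYi EtOH, next to cytochrome P450 genes of the CYP702A and CYP705A families, of which CYP702A3 had 3.67 FPKM in DAYi DEX and 0.0284 FPKM in DAYi EtOH, and AT4G15390, of an acyltransferase family, with 107 FPKM in DAYi DEX and 52.4 FPKM in DAYi EtOH. PEN1 is known from the synthesis of the triterpene arabidiol in roots. The longest lower run held 8 entries in 6 intervals, also on chromosome 4 (chr4:11840134-11858970, 18.8 kb), of which all but AT4G22510 are described as lipid-transfer or protease inhibitor proteins. AT4G22490 had 1.28 FPKM in DAYi DEX and 377 FPKM in DAYi EtOH, AT4G22505 had 0.507 FPKM in DAYi DEX and 71.7 FPKM in DAYi EtOH and AT4G22517 had 3.65 FPKM in DAYi DEX and 572 FPKM in DAYi EtOH. AT4G22510, AT4G22513 and AT4G22517 share 1 interval in the table, and neighbours of like sequence may share reads, so these values are not independent of each other. CYP79F1 and its neighbour CYP79F2, which had 2.85 FPKM in DAYi DEX and 34.5 FPKM in DAYi EtOH, formed part of another lower run on chromosome 1, and tropinone reductase genes formed one on chromosome 2, where AT2G29290 had 7.62 FPKM in DAYi DEX and 106 FPKM in DAYi EtOH.

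**Figure D4:**
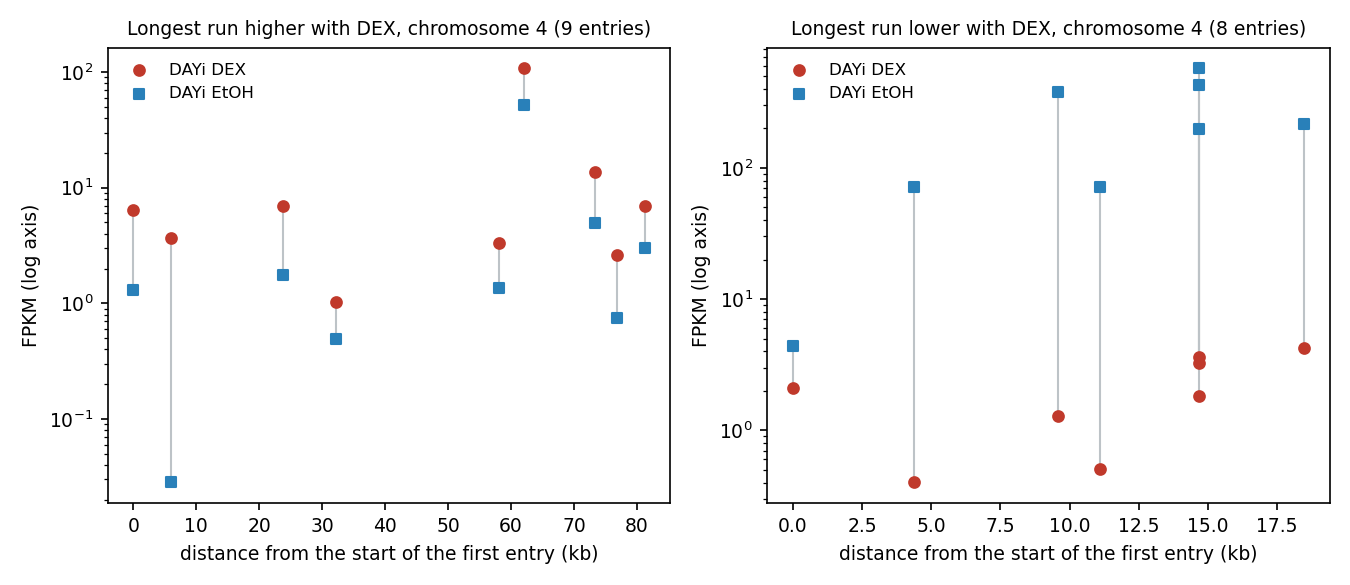
FPKM (log axis) of the adjacent entries of the longest higher run (9 entries) and the longest lower run (8 entries), both on chromosome 4, in DAYi DEX (circles) and DAYi EtOH (squares), against the distance from the start of the first entry (x axis, kb). In the higher run every DEX value lies above its EtOH value, as for AT4G15390 with 107 FPKM in DAYi DEX against 52.4 FPKM in DAYi EtOH, and in the lower run every DEX value lies below it.

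Other motifs were counted in the same way. Site II (TGGGCC or TGGGCT, both strands, same window), known from genes of growing cells, was found in 75.3% of cytosolic ribosomal protein promoters and the telo-box AAACCCTA in 49.0%, against 22.0% and 6.19% of all promoters. Among ranked entries, site II was found in 12.6% of those more than 2-fold higher and 24.7% of those more than 2-fold lower, against 27.2% of all ranked. The I-box share was 26.4% among entries more than 4-fold lower, against 15.8% of all ranked. The W-box (TTGACC or TTGACT), bound by WRKY factors, was found in 33.6% of the promoters of entries more than 2-fold higher and 25.9% of those more than 2-fold lower, but in 27.3% of those more than 4-fold higher and 24.2% of those more than 4-fold lower, against 31.9% of all ranked. The G-box was found in 10 of 29 promoters of iron genes (34.5%), a family with members in both directions, against 9.09% of all ranked.

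The comparison most like this one, bri1-116 over Col-0 in the light, shares no library with it. Of the ranked entries, 370 (2.92%) were more than 2-fold higher in bri1-116 than in Col-0 and 756 (5.98%) were lower. Histones had medians of -1.15 for DEX over EtOH and -0.86 for bri1-116 over Col-0, NDH genes -1.52 and -0.82, and iron genes -0.95 and -0.44. Plastid ribosomal proteins had -2.21 and -0.44, WRKY factors 0.74 and -0.06 (with 10 of 53 higher in bri1-116, as given above), and the ethylene and jasmonate defence markers 3.46 and -0.05. Late anthocyanin synthesis had 2.50 and -2.21, the pair of medians of opposite sign that lay farthest apart, and clock genes had 0.02 and 0.68. The difference between the comparisons was not tested, since each rests on 1 library a side.

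**Figure D5:**
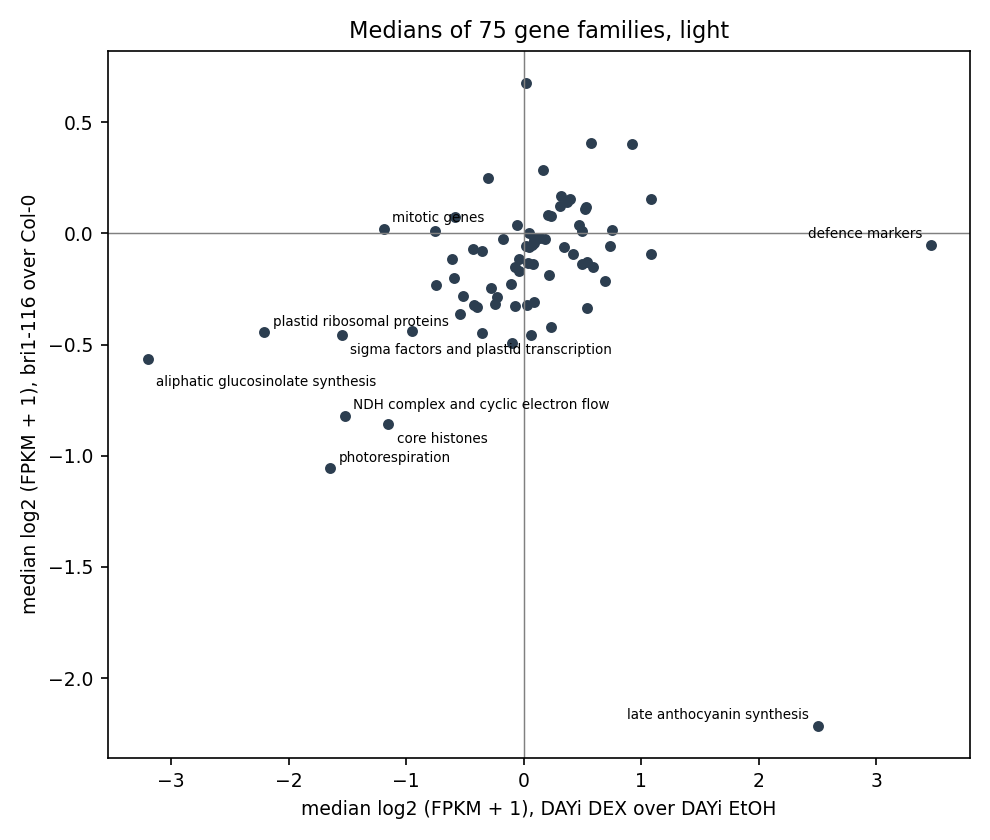
Median log2((FPKM + 1)/(FPKM + 1)) of each of the 75 families, for DAYi DEX over DAYi EtOH and for bri1-116 over Col-0, 1 point per family; each median rests on 1 library a side. Late anthocyanin synthesis lies at 2.50 and -2.21, plastid ribosomal proteins at -2.21 and -0.44, and aliphatic glucosinolate synthesis at -3.20 and -0.57.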

How the data were processed

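RNA from whole seedlings was sequenced in 1 library per condition. The submitters' processing notes name CASAVA 1.8.2 for base calling, TopHat2 2.0.13 for alignment against TAIR10 and Cuffdiff 2.2.0 for expression per gene. The values used are the deposited FPKM (fragments scaled to transcript length and library size) that the authors computed, from 6 columns of 3 tables. Their fold changes, p-values, q-values and test status were not used, nor were 13 files of genes selected from the full tables. The 2 dark-grown libraries whose title and genotype label disagree were assigned to no group and not used. Each table has 26987 entries, 140 of which join several loci and 52 of which carry no locus tag.

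Ratios of DAYi DEX to DAYi EtOH were computed from FPKM without a pseudocount, and an entry was called more than 2-fold apart where both values were above 0. Entries of at least 10 FPKM in 1 or both libraries were ranked. Medians over 75 families used log2((FPKM + 1)/(FPKM + 1)) over members of at least 1 FPKM. A run is 4 or more entries more than 2-fold apart in 1 direction that are next to each other among entries of at least 1 FPKM. Depth was estimated from the spacing of low values of single-exon genes; at the fitted step 56.3% of them in DAYi DEX and 54.9% in DAYi EtOH were whole within 0.15 of a fragment, against 30% for a step not fitted, so the depths are approximate. Motifs were searched in RefSeq promoters (TAIR10.1), 250 bases before to 50 after the start. Genes named are the 30 highest and 30 lowest by ratio, the 10 most abundant at 0 in 1 library, the 20 largest differences each way, up to 4 members per family (the most abundant and the most different) with members against its direction, the markers, and members of runs. A name outside this rule is marked as chosen after its values were seen. The families, patterns and lists were chosen with earlier results of these data known, and name patterns were corrected for wording after values were seen. Alternatives were another fold, other FPKM minima and pseudocounts, 2 other scalings, Col-0 as the comparison library, counting entries at 0, and leaving out joined entries. The calculations were run in Python 3.11.15 with numpy 2.4.6 and pandas 2.3.3, with figures from matplotlib 3.10.9, and were tested on simulated data.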

Additional observations from a re-analysis of the deposited data

Results flagged for a closer look

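The targeted gene DAY (AT3G51140) had a log2 ratio of DEX to EtOH of -3.05 in the light (6.88 FPKM in DAYi DEX and 56.9 FPKM in DAYi EtOH), but 1.38 in the dark, where the library labelled DAYi DEX had 34.8 FPKM and the library labelled DAYi EtOH had 13.4 FPKM. The direction of the dark pair goes against its labels, and for this reason no dark value is compared elsewhere in the text.

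The entry AT2G01021 had a log2 ratio of -1.90 in the light (14027 FPKM in DAYi DEX and 52340.5 FPKM in DAYi EtOH) and 1.11 in the dark (329741 FPKM in the library labelled DAYi DEX and 152722 FPKM in that labelled DAYi EtOH). Both differences between light and dark rest on 1 library per condition and were not tested.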

How the results depend on the processing

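No paired analysis was possible because there was 1 library per condition. Over all entries, 6244 were more than 2-fold apart between DAYi DEX and DAYi EtOH (2663 higher and 3581 lower), and 1974 were more than 4-fold apart (752 higher and 1222 lower). Of the ranked entries 3148 were more than 2-fold apart, with 883 at 4-fold (283 higher and 600 lower), and 1346 among entries of at least 50 FPKM (492 higher and 854 lower), which are fewer by construction. Scaling both libraries to the same summed FPKM without the 100 most abundant entries moved all log2 ratios by 0.13, and centring on the median moved them by -0.08. The share of higher entries among those ranked and apart was 49.5% with that scaling and 35.1% with centring, against 40.1% as deposited. Of 604 named genes above 0 in both libraries, 513 were more than 2-fold apart, and 338 with a pseudocount of 5 FPKM. With members of at least 10 FPKM, the family median turned to -0.48 for TIR-NBS-LRR and other disease-resistance proteins (0.23 with members of at least 1 FPKM) and to -0.13 for cysteine-rich receptor-like kinases (0.20); the cause was not tested. The number of families with a median beyond 0.5 in either direction was 29, and between 26 and 32 under the other settings. Single medians were less steady. Changes of 0.11 or more, the standard deviation of the family medians of DAYi EtOH over Col-0, were counted. They occurred in 63 of 75 families with equal summed FPKM, 28 with Col-0 and 25 with members of at least 10 FPKM. With Col-0, 261 named gene ratios moved by 0.24 or more and 340 by less. Depth limits the lowest values: below about 0.1 FPKM a value rests on a few fragments at most.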
